A study of Mus musculus with 60 samples.

Results

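The nuclear-encoded subunits of respiratory complex I were taken as every row of the gene count table whose symbol is Nduf followed by a, b, c, s or v and a number, which selected 36 of 55011 genes. Of these, 35 encode complex I subunits. Ndufa4 fits the symbol but is now placed in complex IV, so it was kept and is given apart where it matters. Ndufab1, the acyl carrier protein of the complex, and Ndufb1-ps fall outside the symbol rule, and assembly factors (Ndufaf genes) were not members. All 36 had counts in every comparison and passed its filter on low counts.

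Complex I is the entry point of the respiratory chain, where electrons from NADH pass through a flavin and a row of iron-sulphur clusters to ubiquinone while protons are pumped across the inner mitochondrial membrane. Its matrix arm carries the electron transfer and its membrane arm the proton pumps, whose central subunits are encoded by mitochondrial DNA. Nuclear genes encode the core subunits of the matrix arm and a large set of accessory subunits that surround and stabilise both arms. Brown adipose tissue is rich in mitochondria, and its adipocytes release the proton gradient as heat through the uncoupling protein Ucp1.

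RNA sequencing of whole mouse fat gave 52 libraries in 16 groups, 38 from brown adipose tissue (BAT) and 14 from subcutaneous adipose tissue (SAT), and 8 further libraries held sorted regulatory T (Treg) cells. All whole-fat mice were males of 8 weeks. Strain B6.Foxp3.DTR places the diphtheria toxin receptor under Foxp3, the gene of the Treg lineage factor, so that toxin removes Foxp3-expressing cells in DTR+ mice and spares DTR- mice. The series compares fat with and without Treg cells.

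The D4 groups held DTR- and DTR+ mice given toxin, with 4 libraries each in BAT and in SAT. The D3 groups held the same genotypes given toxin, with 3 libraries each per tissue, and PBS is named in their titles. Whether D3 and D4 are days or experiments is not stated in the labels. A set of BAT groups of 3 held DTR- mice given toxin and PBS (PBS), DTR- mice given toxin and CL (CL) and DTR+ mice given toxin and CL (DTR+ CL). The labels do not spell out the agent CL. DTR+ mice given toxin also received an antibody against interferon gamma (anti-IFNg) or isotype control (DTR+ isotype), with 3 BAT libraries each. C57BL/6J mice, for which no toxin is named, received isotype control (WT isotype) or PC61, an antibody against CD25, with 3 BAT libraries each. The cold group held 3 BAT libraries of mice at 4 degrees given PBS, with no toxin named. Its titles say WT and its genotype field says DTR- of the B6.Foxp3.DTR strain. Nothing in the labels ties each replicate to a mouse of its own or excludes pooling. The p-values therefore measure the spread between these libraries, which may be technical.

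Library totals ran from 3007241 to 9673342 counts. Foxp3 had 0 to 29 counts per whole-fat library and 0 to 7 in BAT, too few to check the depletion labels. The tissue labels were borne out by 6 brown adipocyte markers, whose summed level was 7845 to 29665 CPM (counts divided by scaled library size) in BAT libraries and 148 to 1293 in SAT libraries. Markers of skeletal muscle differed between libraries of 1 group, from 12.2 to 2257 CPM in BAT DTR- D4 and from 17.8 to 5247 in BAT DTR+ D4. In bulk tissue, fewer cells of a type and less RNA per cell cannot be told apart.

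On the mouse build mm10 with GENCODE M21, the 36 genes lay on 15 chromosomes, 2 of them on X. Their main transcripts were 419 to 2590 bases long and 23 of them were shorter than 1000 bases. Near copies elsewhere in the genome were found for 8 of the genes, with 13 for Ndufc1, 2 for Ndufb4 and 1 each for Ndufa12, Ndufb11, Ndufb3, Ndufs3, Ndufs5 and Ndufs6, and their counts are uncertain to that extent. A gene on the opposite strand overlapped 13 of the genes, and a gene on the same strand overlapped Ndufb2, Ndufb8 and Ndufb9. Reads of such pairs may not be told apart, because the strand setting of the counting is not given in the sources used here.

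Promoters are shown because the 36 genes lie apart in the genome and were low or high together in several comparisons below. RefSeq start sites on GRCm38.p6 gave windows of 250 bases before to 50 after the start for 32 of the 36. The motif AAGATGGC, which resembles the YY1 recognition sequence and contains an ATG, was present on either strand in 7 of the 32, or 21.9%. It was present in 3.6% of 16522 protein-coding genes with such a window, in 2.7% of all 32851 windows, and in 2 of 31 nuclear genes for complexes II to V (6.5%). In all 7 its ATG was the annotated start codon. The capitals below mark this motif.
Ndufa3 (chr7:3617387-3617410, plus strand): ccaagaacAAGATGGCcgggagta
Ndufa9 (chr6:126849100-126849123, minus strand): tgtgggagAAGATGGCggccgccg
Ndufb8 (chr19:44555393-44555412, minus strand): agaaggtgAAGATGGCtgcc
Ndufc1 (chr3:51408918-51408941, minus strand): tgcggaacAAGATGGCgccgtccg
Ndufs4 (chr13:114388045-114388067, minus strand): cctacaggAAGATGGCggcggtc
Ndufs6 (chr13:73328434-73328457, minus strand): tcaccggcAAGATGGCggcggtgc
Ndufs7 (chr10:80249465-80249488, plus strand): ccgaggccAAGATGGCggcgctgg

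Of the other motifs searched on both strands, the core of the NRF1 recognition sequence, GCGCATGC, was present in 3 of 32 (9.4%, against 4.1% of protein-coding genes and 22.6% of the 31 genes for complexes II to V). The recognition site of estrogen-related receptors, AAGGTCA, was also present in 3 (9.4%, against 4.6% and 16.1%). The ETS-type motif CCGGAAGT was present in 1, Ndufs3 (3.1%, against 5.9% and 12.9%), and the SP-type motif GGGCGG in 14 (43.8%, against 51.0% and 29.0%). The capitals below mark the NRF1 core in Ndufa6, Ndufa8 and Ndufa11 and the AAGGTCA motif, or its reverse complement, in Ndufb2, Ndufb4 and Ndufs5. In Ndufa11 another match, on the opposite strand, overlaps the one marked. A match describes letters and shows no binding, and absence from the window says nothing of a factor.
Ndufa6 (chr15:82354351-82354390, minus strand): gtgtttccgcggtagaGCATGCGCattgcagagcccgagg
Ndufa8 (chr2:36049339-36049362, minus strand): gcgcgtcgctggagacGCATGCGC
Ndufa11 (chr17:56717686-56717725, plus strand): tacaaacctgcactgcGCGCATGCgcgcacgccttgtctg
Ndufb2 (chr6:39592368-39592406, plus strand): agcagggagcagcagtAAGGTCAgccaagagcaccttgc
Ndufb4 (chr16:37654401-37654439, minus strand): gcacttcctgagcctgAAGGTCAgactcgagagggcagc
Ndufs5 (chr4:123718392-123718430, minus strand): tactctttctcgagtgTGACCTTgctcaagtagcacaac

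The summed level of the 36 genes, in CPM scaled across the 52 libraries, was highest in BAT of PBS mice at 34067 ± 2991 (SD, n = 3). DTR- D3 at 33795 ± 2729 (n = 3), DTR- D4 at 33577 ± 2456 (n = 4) and cold at 33145 ± 2914 (n = 3) followed, with overlapping ranges. Next came WT isotype at 28822 ± 1161, CL at 28783 ± 1167, DTR+ D3 at 28207 ± 585 and PC61 at 27538 ± 2348 (n = 3 each). Between cold and WT isotype the library ranges did not overlap, and neither did those of PC61 and DTR+ D4. The lowest BAT levels were those of DTR+ D4 at 24496 ± 848 (n = 4), DTR+ CL at 24352 ± 4704, anti-IFNg at 23733 ± 1719 and DTR+ isotype at 22417 ± 1094 (n = 3 each). Library 1 of DTR+ CL, at 29709 CPM, stood well above the other two at 20894 and 22453. All 4 SAT groups lay far lower, from 7561 ± 818 (DTR+ D4, n = 4) to 8707 ± 662 (DTR+ D3, n = 3), and overlapped each other. This order is a description with no test, since the labels do not say which groups were processed together.

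**Figure D1:**
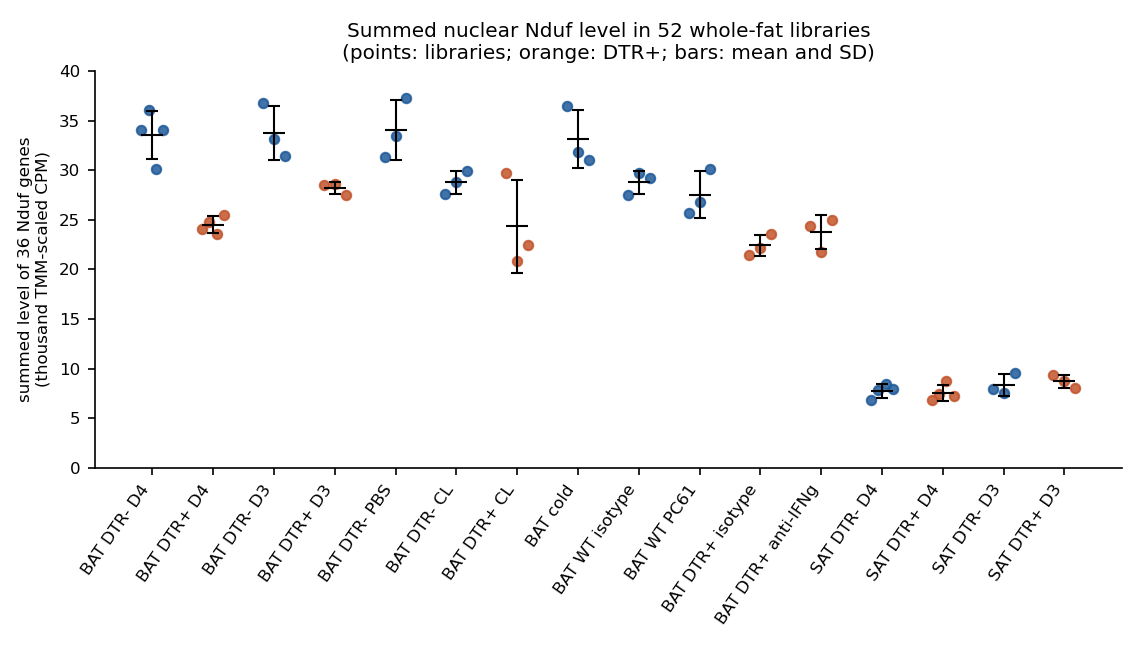
Summed level of the 36 Nduf genes (CPM, vertical axis) in each of the 16 whole-fat groups (horizontal axis), with points for libraries and bars for the mean and SD. The SAT groups average between 7561 and 8707 CPM, below all BAT groups, and DTR+ D4 libraries lie below DTR- D4 libraries in BAT.

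Per kilobase of transcript, Ndufa4 was the most abundant in BAT of DTR- D4 mice at 4992 ± 498 CPM per kb (n = 4). Among complex I genes proper, Ndufb8 (3199 ± 291), Ndufa1 (2403 ± 195) and Ndufb9 (2318 ± 192) led, all accessory subunits of the membrane arm. Ndufs4, a matrix-arm subunit whose loss causes Leigh-like disease in mice and humans, was among the lowest at 294.7 ± 23.2. Ndufb4, whose counts are uncertain through its near copies elsewhere, was the lowest at 123 ± 15.4. Even so, Ndufb4 ranked at percentile 95.7 per kb among 15502 genes detected in this group, and the median of the 36 at percentile 99.1. In SAT DTR- D4 the lowest was again Ndufb4, at percentile 88.6 among 16124 genes, and the median was at percentile 97.85.

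The nuclear core subunits carry the flavin, the iron-sulphur clusters and the ubiquinone site, and 6 are given below, each in descending order of its BAT means. For these 6, every SAT group lay below every BAT group without overlap. Ndufv1 (chromosome 19, 4007384 to 4012806, minus strand) binds NADH and the flavin. Its level was 2398 ± 219 CPM in DTR- D3, 2337 ± 186 in DTR- D4, 2229 ± 123 in PBS, 2038 ± 55.6 in DTR+ D3, 2022 ± 51.2 in WT isotype and 1999 ± 98.0 in PC61 BAT (mean ± SD, n = 4 for D4 groups and n = 3 for all others, here and for the genes that follow). It was 1864 ± 359 in CL, 1766 ± 54.0 in DTR+ D4, 1638 ± 204 in DTR+ CL, 1636 ± 179 in cold, 1617 ± 169 in anti-IFNg and 1332 ± 30.1 in DTR+ isotype. Along this order of BAT means, adjoining groups overlapped except between PBS and DTR+ D3 and between anti-IFNg and DTR+ isotype. In SAT it was 351 ± 17.8 (DTR+ D4) to 427 ± 53.3 (DTR+ D3), with 372 ± 55.4 in DTR- D4 and 385 ± 75.2 in DTR- D3.

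Ndufv2 (chromosome 17, 66078638 to 66101559, minus strand), the neighbour of Ndufv1 that carries an iron-sulphur cluster, was highest in cold BAT at 1804 ± 101 CPM. It was 1664 ± 156 in PBS, 1612 ± 196 in DTR- D3, 1567 ± 145 in DTR- D4, 1389.6 ± 64.2 in WT isotype, 1264 ± 45.5 in CL and 1223 ± 146 in PC61. DTR+ groups were at 1211 ± 21.5 (D3), 1047 ± 20.8 (D4), 986 ± 93.7 (anti-IFNg), 984 ± 101 (CL) and 940.1 ± 33.4 (isotype). Adjoining groups overlapped except between WT isotype and CL and between DTR+ D3 and DTR+ D4. SAT means were 263 ± 38.6 (DTR+ D4), 302 ± 25.1 (DTR- D4), 338 ± 30.3 (DTR- D3) and 342 ± 25.9 (DTR+ D3).

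Ndufs1 (chromosome 1, 63143596 to 63176833, minus strand), the large subunit with several iron-sulphur clusters, spanned 2.35-fold over the BAT group means, the widest span among these 6. It was 1326 ± 91.3 CPM in DTR- D4, 1310.1 ± 136 in DTR- D3, 1279 ± 159 in PBS, 1262 ± 54.96 in WT isotype and 1149.9 ± 73.9 in PC61. It was 992 ± 13.5 in DTR+ D3, 991 ± 117 in CL, 841 ± 92.2 in cold, 833 ± 35.6 in DTR+ D4, 798 ± 106 in DTR+ CL, 719.9 ± 114 in anti-IFNg and 565 ± 5.01 in DTR+ isotype. PC61 overlapped neither WT isotype above it nor DTR+ D3 below it, and DTR+ isotype lay clear of anti-IFNg. SAT means were 224 ± 33.6 (DTR+ D4), 287 ± 44.3 (DTR- D4), 319.8 ± 22.3 (DTR+ D3) and 328 ± 58.5 (DTR- D3).

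Ndufs7 (chromosome 10, 80249121 to 80256794, plus strand), which holds the last cluster before ubiquinone, was 1239 ± 142 CPM in DTR- D4, 1237 ± 148 in DTR- D3, 1092 ± 113 in DTR+ D3, 1084 ± 89.1 in cold and 1081 ± 7.01 in PBS. It was 965 ± 79.3 in CL, 959 ± 116 in DTR+ D4, 906 ± 34.0 in WT isotype, 845 ± 75.5 in PC61, 807 ± 148 in DTR+ CL, 799 ± 43.3 in anti-IFNg and 761 ± 41.7 in DTR+ isotype. Only PBS and CL among adjoining BAT groups did not overlap. SAT means were 243 ± 19.4 (DTR- D4), 262 ± 21.5 (DTR+ D4), 266 ± 19.4 (DTR- D3) and 291 ± 21.1 (DTR+ D3).

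Ndufs3 (chromosome 2, 90894634 to 90904827, minus strand), which links the cluster-bearing part of the matrix arm to the ubiquinone site, was 788 ± 70.1 CPM in DTR- D3, 762 ± 108 in PBS, 747 ± 58.4 in DTR- D4, 685 ± 92.5 in cold, 642 ± 57.6 in WT isotype and 635 ± 8.11 in DTR+ D3. It was 597 ± 62.8 in PC61, 580.1 ± 72.8 in CL, 538 ± 14.6 in DTR+ D4, 491 ± 50.9 in anti-IFNg, 481 ± 109.5 in DTR+ CL and 444 ± 37.8 in DTR+ isotype. Every adjoining pair of BAT groups overlapped. SAT means were 159.9 ± 16.1 (DTR+ D4), 169.9 ± 19.6 (DTR- D4), 185 ± 26.9 (DTR- D3) and 190.1 ± 10.9 (DTR+ D3).

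Ndufs8 (chromosome 19, 3908863 to 3912774, minus strand), which carries a pair of clusters near the membrane, was 1061 ± 129 CPM in DTR- D3, 934 ± 60.1 in DTR- D4, 923 ± 73.3 in PBS, 831 ± 50.1 in DTR+ D3, 807 ± 27.0 in WT isotype and 759 ± 83.2 in cold. It was 734 ± 92.2 in PC61, 697 ± 13.5 in CL, 683 ± 69.6 in DTR+ D4, 648 ± 81.3 in anti-IFNg, 604 ± 53.0 in DTR+ isotype and 561 ± 82.1 in DTR+ CL. As for Ndufs3, every adjoining pair of BAT groups overlapped. SAT means were 164 ± 16.4 (DTR- D4), 167 ± 24.4 (DTR+ D4), 181 ± 18.8 (DTR- D3) and 186 ± 16.6 (DTR+ D3).

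The first comparison asked how the genes differ between the depots in mice that keep Treg cells. At D4, all 36 were higher in BAT than in SAT, with a median log2 fold change of 2.08 and a range of 1.36 to 2.67, and no member's library ranges overlapped. Separate groups were counted for the members alone, here and below. Such counts therefore have no share over all genes to be set against. Of 12310 genes tested by edgeR's quasi-likelihood test with Benjamini-Hochberg adjustment, 25.9% were called higher. Core subunits had a median of 2.37, matrix-arm accessory subunits 1.89, those of the proximal membrane arm 1.95 and of the distal membrane arm 1.92. In the separate D3 libraries all 36 were again higher (23% of 12387 genes), with a median of 1.97, and medians of 2.25, 1.85, 1.90 and 1.82 in the same order. Across the 36 genes, the D4 and D3 depot differences correlated with Pearson's r of 0.94 and Spearman's rho of 0.93, given as a description over genes that share their libraries within each comparison.

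Ndufv1 stood apart most in both, with D4 levels of 296, 401, 423 and 369 CPM in the SAT libraries and 2406, 2487, 2065 and 2390.5 in the BAT libraries. Its log2 fold change was 2.67 ± 0.13 (SE, adjusted p = 1.1e-09) at D4 and 2.67 ± 0.16 (SE, adjusted p = 5.2e-08) at D3. Ndufs8 had SAT levels of 141, 178, 174 and 165 CPM and BAT levels of 920.3, 989.9, 855 and 970.2, a log2 fold change of 2.53 ± 0.11 (SE, adjusted p = 8.7e-10) at D4 and of 2.58 ± 0.14 (SE, adjusted p = 3e-08) at D3. Ndufa10, an accessory subunit of the membrane arm with a nucleoside-kinase fold, was at 247, 342, 372 and 297 CPM in SAT and 1814, 1959.5, 1734 and 2041 in BAT, with 2.61 ± 0.13 (SE, adjusted p = 1.6e-09) at D4 and 2.47 ± 0.15 (SE, adjusted p = 6.1e-08) at D3. In these 3 genes every BAT library exceeded every SAT library several-fold. Ndufb8 was higher by 2.52 ± 0.13 (SE, adjusted p = 1.6e-09) at D4 and 2.43 ± 0.17 (SE, adjusted p = 1.5e-07) at D3. The LYR-motif subunit Ndufa6, which binds the acyl carrier protein, reached 2.43 ± 0.11 (SE, adjusted p = 9.7e-10) at D4. Further D4 values were 2.40 ± 0.11 (SE, adjusted p = 9.5e-10) for Ndufv2, 2.25 ± 0.10 (SE, adjusted p = 8.7e-10) for the membrane-arm subunit Ndufb5 and 2.12 ± 0.10 (SE, adjusted p = 9.7e-10) for Ndufa8, a twin-cysteine subunit on the intermembrane-space side. At D3 the values were 2.40 ± 0.14 (SE, adjusted p = 4.4e-08) for Ndufb6, 2.25 ± 0.13 (SE, adjusted p = 5.1e-08) for Ndufs7, 2.23 ± 0.13 (SE, adjusted p = 4.1e-08) for Ndufb5 and 2.14 ± 0.12 (SE, adjusted p = 3.5e-08) for the zinc-binding subunit Ndufs6. The smallest depot differences belonged to Ndufa2, a matrix-arm subunit with a thioredoxin-like fold, at 1.36 ± 0.11 (SE, adjusted p = 9.2e-08) and 1.23 ± 0.12 (SE, adjusted p = 3.4e-06).

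Other parts of the chain were higher in BAT as well. Of 40 nuclear genes for complexes II to V, 38 were higher and 1 lower at D4 and 37 higher and 1 lower at D3. Of 16 tested complex I assembly factors, 16 and 15 were higher, and of the 7 complex I genes of mitochondrial DNA, 7 and 6. Ucp1 itself averaged 5788 ± 778 CPM in BAT and 26.7 ± 30.6 in SAT at D4 (n = 4 each), and all 6 brown adipocyte markers were higher in BAT. Markers of macrophages ran the other way, with summed levels of 103 to 296 CPM in BAT and 704 to 1789 in SAT at D4, and so did fibroblast markers, at 751 to 1017 and 3282 to 8694 (4 of 4 lower in BAT). The part of either in the depot differences was not tested. SAT DTR- D4 library 3 stood apart, with B cell markers at 193.9 CPM against 4.95 to 8.13 in the other SAT DTR- D4 libraries and T and NK cell markers at 151.1 against 14.6 to 17.5. Without it, 36 of 36 were called higher in BAT with a median of 2.13, the D4 SAT comparison below gave 0 calls and the D4 interaction 4.

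The next comparison asked what changes in BAT where toxin removes Foxp3-expressing cells, and it uses the same DTR- BAT libraries as the depot comparison. At D4, 33 of 36 Nduf genes fell in DTR+ mice and 0 rose, with a median log2 fold change of -0.42 and a range of -0.62 to -0.17. All 36 were below 0, and in 30 of 36 the 4 DTR+ libraries all lay below the 4 DTR- libraries. Of 11695 genes tested, 7.36% were called lower. Among the 1399 tested genes expressed at least as highly as the lowest member, 492 (35.2%) fell and the median was -0.22. The counts were 7 of 7 core subunits (median -0.42), 7 of 9 matrix-arm (-0.41), 8 of 9 proximal (-0.45) and 10 of 10 distal membrane-arm accessory subunits (-0.44), together with Ndufa4.

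Ndufs1 fell most. Its levels were 1314, 1449.7, 1229.8 and 1309 CPM in the DTR- libraries and 797, 862, 865 and 807 in the DTR+ libraries, a log2 fold change of -0.62 ± 0.08 (SE, adjusted p = 8.8e-05). All 4 DTR+ values lay below the lowest DTR- value. Ndufa8 was at 657, 647, 571 and 643 CPM against 423, 418, 398 and 430.3, with -0.54 ± 0.08 (SE, adjusted p = 0.00036). Ndufv2 was at 1499, 1764, 1427 and 1579.6 CPM against 1039, 1078, 1036 and 1034, with -0.53 ± 0.08 (SE, adjusted p = 0.00036). The groups were separate for both. Ndufs5, a small twin-cysteine subunit of the membrane arm with a near copy elsewhere, was at 181, 179, 172 and 172 CPM against 112, 125, 118 and 113, with -0.54 ± 0.09 (SE, adjusted p = 0.00077). Ndufa10 was at 1814, 1959.5, 1734 and 2041 CPM against 1304, 1136, 1273 and 1361, with -0.52 ± 0.08 (SE, adjusted p = 0.00055). For Ndufb5 the levels were 693, 698, 689 and 653 CPM against 455, 489, 466 and 467, and -0.49 ± 0.08 (SE, adjusted p = 0.00054). Each of these pairs of groups was separate.

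Ndufa1, Ndufa2 and Ndufa7 did not pass the test. Ndufa1 (chromosome X, 37187588 to 37191163, minus strand), a short membrane-anchored subunit, was at 999.8, 1100.3, 902 and 1025 CPM in DTR- and 839.7, 974, 748 and 855 in DTR+ libraries, with -0.18 ± 0.09 (SE, adjusted p = 0.21). Ndufa2 was at 719, 789.6, 612 and 764 CPM against 629, 638, 543 and 668, with -0.17 ± 0.10 (SE, adjusted p = 0.28), and Ndufa7, a matrix-arm subunit, at 559.9, 587, 470.0 and 546 against 439, 479.8, 388 and 455, with -0.24 ± 0.09 (SE, adjusted p = 0.094). In all 3 the groups overlapped, through DTR- library 3, which was the lowest of its group for each.

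The fall at D4 extended to other parts of the chain, with 33 of 40 nuclear genes for complexes II to V lower (median -0.36) and 8 of 16 assembly factors lower (median -0.40), 0 higher in either list. Ndufaf1, which builds the membrane arm, had -0.61 ± 0.12 (SE, adjusted p = 0.0021), and Ecsit had -0.53 ± 0.11 (SE, adjusted p = 0.0047). Of the 7 complex I genes of mitochondrial DNA, mt-Nd1 (-0.69 ± 0.10 SE, adjusted p = 0.00067), mt-Nd2, mt-Nd4 and mt-Nd5 fell. Of 13 listed transcriptional regulators of respiratory genes, the coactivator Ppargc1a rose (0.73 ± 0.19 SE, adjusted p = 0.021) and the mitochondrial transcription factor gene Tfb2m fell (-0.49 ± 0.14 SE, adjusted p = 0.022). Ndufab1, the acyl carrier protein, had -0.45 ± 0.09 (SE, adjusted p = 0.0025).

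Markers of cell types moved in the same comparison. The brown adipocyte markers summed to 12740 to 15195 CPM in DTR- and 7845 to 9201 in DTR+ libraries, with 4 of 6 lower and 1 higher, while 0 of 4 general adipocyte markers passed. Macrophage markers summed to 103 to 296 CPM in DTR- and 454 to 1059 in DTR+, with 6 of 7 higher, and T and NK cell markers to 3.44 to 6.24 and 17.9 to 42.1. The part of these shifts in the Nduf values was not tested. Without the 3 libraries with over 500 CPM of the muscle actin gene Acta1, 26 of 36 were called lower with a median of -0.45, in a fit of 2 DTR- against 3 DTR+ libraries chosen after seeing the data.

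The D3 libraries share no library with D4. There, 2 of 36 genes fell in BAT of DTR+ mice and 0 rose (1.29% of 11666 genes were called lower), with a median of -0.25. Of the 36, 35 were below 0, 21 had an unadjusted p under 0.05 and 30 had separate groups. The 1455 genes expressed at least as highly as the lowest member also had medians below 0. These were -0.14 for transcripts under 1 kb, -0.20 for 1 to 2 kb and -0.16 for longer ones. The share of all genes with an unadjusted p under 0.05 is not given, here and below. Ndufa11, a membrane-arm subunit, was at 531, 408 and 394 CPM in DTR- and 313, 320.5 and 311 in DTR+ libraries, with -0.47 ± 0.12 (SE, adjusted p = 0.049). Ndufb5 was at 790.2, 704 and 713 CPM against 564, 501 and 571, with -0.41 ± 0.10 (SE, adjusted p = 0.049). In both genes the groups were separate, and both were also lower at D4. The 2 calls lay near the threshold: leaving out DTR- library 3 left 1, and leaving out any of the other 5 libraries left 0. Leaving out the 3 libraries with over 500 CPM of Acta1, a choice made after seeing the data, also left 0, while DESeq2 called 6. Ndufs1 missed the threshold at -0.37 ± 0.10 (SE, adjusted p = 0.06), with 1453, 1295 and 1182 CPM against 976, 999 and 1000.5 and separate groups.

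Across the 36 genes, the size of the D4 value exceeded that of the D3 value in 36 and the signs matched in 35. Pearson's r between the paired values was 0.74 and Spearman's rho 0.71, a description over genes within shared libraries. The largest gap, 0.36, belonged to Ndufb3, a distal membrane-arm subunit at -0.43 ± 0.09 (SE, adjusted p = 0.0039) for D4 and -0.07 ± 0.11 (SE, adjusted p = 0.78) for D3. Whether the D4 and D3 effects differ was not tested. In D3 BAT, brown adipocyte markers summed to 16274 to 20642 CPM in DTR- and 10545 to 13387 in DTR+ libraries, with 0 of 6 called, and macrophage markers to 109 to 203 and 288 to 339, with 2 of 6 tested called higher. Neither pair of ranges overlapped, and their part was not tested.

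**Figure D2:**
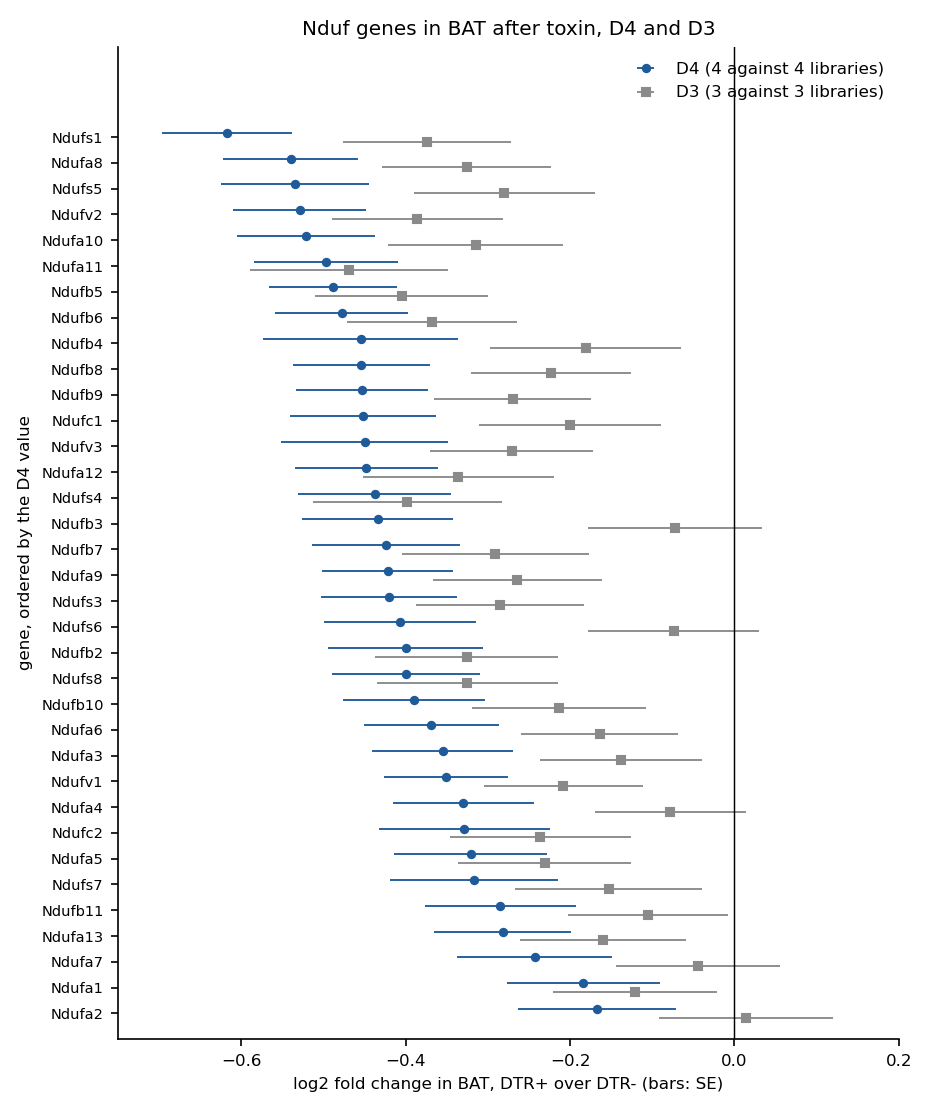
Log2 fold change of 35 of the Nduf genes (vertical axis, ordered by the D4 value) in BAT of DTR+ over DTR- mice (horizontal axis) at D4 (circles, 4 against 4 libraries) and D3 (squares, 3 against 3), with bars for the SE. All D4 values shown lie below 0, and all D3 values except that of Ndufa2 do.

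In SAT at D4, 0 of 36 genes were called in either direction (0.314% of 12728 genes were), and 1 had an unadjusted p under 0.05 by edgeR. DESeq2 called 0 as well. The median was -0.01, and 19 of 36 values were below 0. The 95% intervals ran from -0.61 at the lowest to 0.41 at the highest, and 33 of 36 lay wholly above -0.42, the median of the BAT fall. Intervals here and below use a normal approximation, which makes them somewhat too narrow for so few libraries. The value of -0.42 is itself an estimate with its own error. Ndufa4 was at 612, 636, 725 and 706 CPM in DTR- and 568, 622, 849 and 605 in DTR+ libraries, with -0.01 ± 0.13 (SE, adjusted p = 1), where the sign turned with single libraries. The groups overlapped. Ndufs1 had the lowest p, with 226, 315, 324 and 285 CPM against 199, 226, 270.4 and 199 and -0.35 ± 0.14 (SE, adjusted p = 0.57), and Ndufa2 had 0.19 ± 0.10 (SE, adjusted p = 0.71).

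In SAT at D3, 0 of 36 genes were called (0% of 12596 genes), 0 had an unadjusted p under 0.05 and DESeq2 called 0. The median was 0.07, 29 of 36 values were above 0, and all 36 intervals lay above -0.42. Ndufa4 had 0.07 ± 0.14 (SE, adjusted p = 0.99), from 692, 630.1 and 828 CPM in DTR- and 845, 734 and 668 in DTR+ libraries. Ndufa3 had 0.17 ± 0.14 (SE, adjusted p = 0.98) and Ndufa5 0.17 ± 0.13 (SE, adjusted p = 0.98). The sign of Ndufa4 also turned with single libraries.

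The difference between the BAT and SAT effects was tested as an interaction. At D4, 4 of 36 genes had a lower value in BAT than in SAT and 0 a higher one (1.05% of 13502 genes were called lower). All 36 estimates were below 0, with a median of -0.43, and 33 had an unadjusted p under 0.05. The 2141 genes expressed at least as highly as the lowest member also had medians below 0. These were -0.28 for transcripts under 1 kb, -0.21 for 1 to 2 kb and -0.10 for longer ones. Ndufv3, an accessory subunit beside the NADH site, had an interaction of -0.66 ± 0.15 (SE, adjusted p = 0.016). Its SAT levels were 189, 213, 225 and 210.5 CPM in DTR- and 216, 245, 260.2 and 219 in DTR+ libraries, and its BAT levels 737, 639, 534 and 662 and 466, 463, 396 and 490.5. Ndufv3 thus overlapped between genotypes in SAT and was separate in BAT. Ndufa6 had -0.57 ± 0.15 (SE, adjusted p = 0.036), with 812, 806, 712 and 803 CPM against 585, 616, 542 and 596 in BAT. Ndufa8 had -0.49 ± 0.12 (SE, adjusted p = 0.032) and Ndufs6 -0.48 ± 0.13 (SE, adjusted p = 0.046). Leaving out BAT DTR- library 1 or BAT DTR+ library 3 left 0 calls. Leaving out SAT DTR- library 3 or SAT DTR+ library 2 kept the count within 1.5 times of 4, as did BAT DTR- library 3, and each of the other 11 left 1 or 2. DESeq2 called 12. At D3, 0 of 36 were called (0.0675% of 13325 genes), with a median of -0.33, 36 of 36 below 0 and 12 with an unadjusted p under 0.05. For 2198 genes expressed at least as highly as the lowest member, the medians in the same order of length were -0.20, -0.17 and -0.09. The values were -0.57 ± 0.18 (SE, adjusted p = 0.25) for Ndufa11, -0.53 ± 0.18 (SE, adjusted p = 0.27) for Ndufs4, -0.38 ± 0.19 (SE, adjusted p = 0.49) for Ndufv1 and -0.16 ± 0.17 (SE, adjusted p = 0.8) for Ndufa4.

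**Figure D3:**
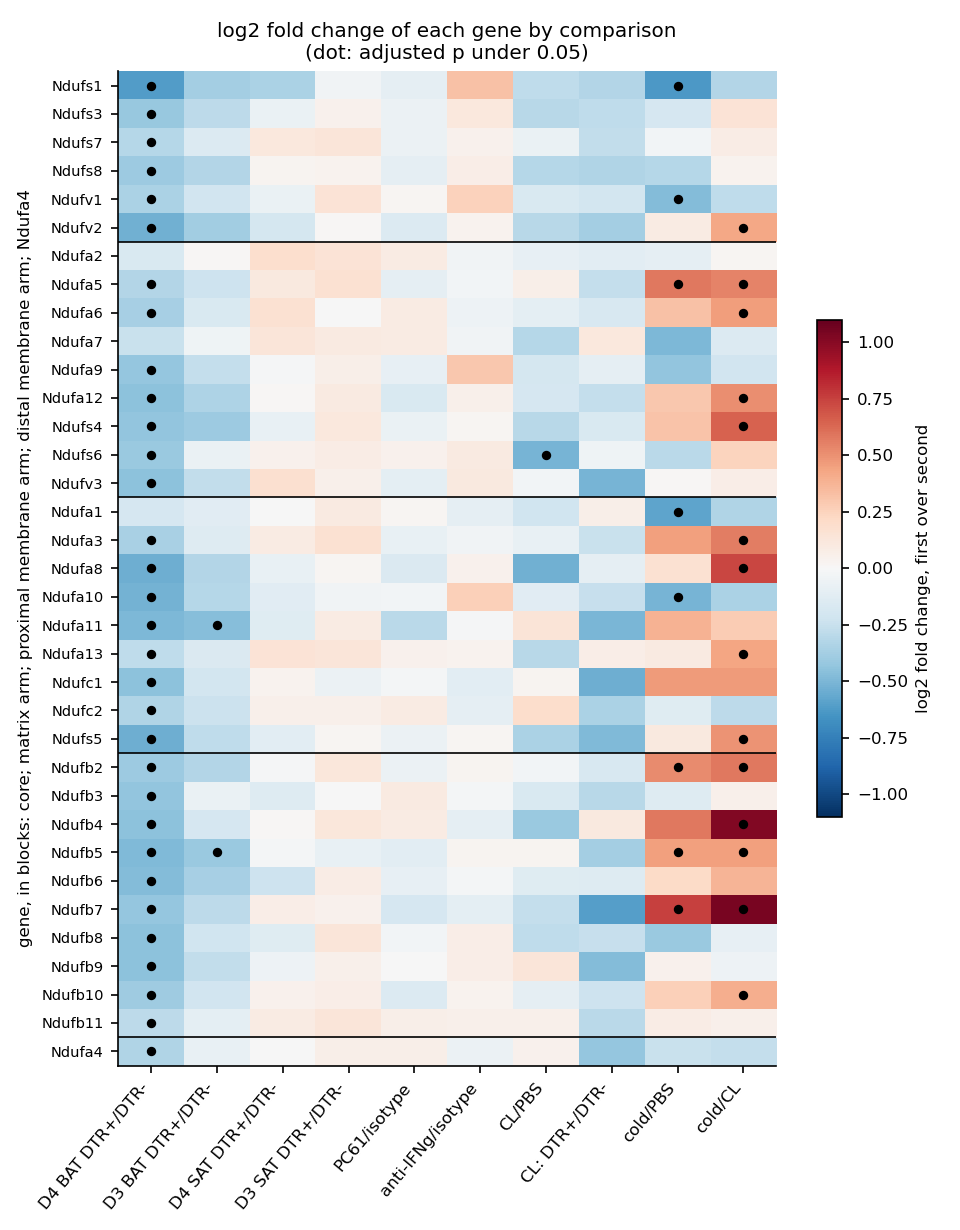
Log2 fold change of 35 of the Nduf genes (rows, grouped by place in the complex) in 10 comparisons within a depot (columns), by colour. The D4 BAT column is negative in all 35 rows, and the cold columns mix both signs.

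CL was compared with PBS in DTR- BAT. Only Ndufs6 fell, and 0 of 36 rose (11.8% of 12048 genes were called lower). The median was -0.17 and 28 of 36 values were below 0. Ndufs6 was at 469, 475 and 510.5 CPM in PBS and 299.7, 334 and 323 in CL libraries, with -0.51 ± 0.18 (SE, adjusted p = 0.049). The groups were separate, but in this fit of all 9 libraries of the set the call was lost when any of the 3 CL or 3 PBS libraries, or DTR+ CL library 3, was left out, and 3 genes were called without DTR+ CL library 1 or 2. With all 52 libraries in 1 fit 13 genes fell, where the median of all genes was -0.14. Ndufa8 (-0.53 ± 0.19 SE, adjusted p = 0.05) did not pass. CL library 2 stood apart in makeup: core subunits took 24.1% of its summed level against 28.8% and 27.8% in libraries 1 and 3, and distal subunits 28.5% against 25.2% and 24.8%.

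Markers of other cells differed between the groups. T and NK cell markers summed to 4.86 to 119.8 CPM in PBS and 2.55 to 3.87 in CL libraries, and macrophage markers to 211 to 577 and 104 to 135. Endothelial markers summed to 159 to 272 and 389 to 436 (3 of 4 higher). Brown adipocyte markers summed to 15034 to 18791 and 22951 to 28437 (3 of 6 higher). The part of these markers in the Nduf values was not tested. In the same groups Ucp1 averaged 9223 ± 1404 CPM in PBS and 15532 ± 2356 in CL, and 7 of 13 respiratory regulators rose. The share of all genes called higher in CL is not given here. Ppargc1a had 4.89 ± 0.32 (SE, adjusted p = 6.1e-07), the GA-binding protein subunit Gabpb1 1.38 ± 0.28 (SE, adjusted p = 0.0027), the Ppargc1a relative Ppargc1b 1.16 ± 0.23 (SE, adjusted p = 0.0021) and Nrf1 0.90 ± 0.28 (SE, adjusted p = 0.03). Among assembly factors Tmem186 (-2.20 ± 0.36 SE, adjusted p = 0.00059), Tmem126b and Ndufaf7 fell and Ndufaf4 rose (0.74 ± 0.20 SE, adjusted p = 0.016). Of the mitochondrially encoded subunits mt-Nd1 (-0.62 ± 0.21 SE, adjusted p = 0.041) and mt-Nd3 fell.

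DTR+ CL against DTR- CL, which uses the same CL libraries, gave 0 of 36 called (7.72% of 12048 genes in either direction). The median was -0.26, with 32 of 36 below 0 and 11 with an unadjusted p under 0.05, and DESeq2 also called 0. Ndufb9, a membrane-arm subunit, was at 1478, 1834 and 1547 CPM in DTR- and 1370.3, 1055 and 1097 in DTR+ libraries, with -0.48 ± 0.15 (SE, adjusted p = 0.07) and separate groups. Ndufv3 had -0.51 ± 0.17 (SE, adjusted p = 0.08), Ndufa4 -0.43 ± 0.16 (SE, adjusted p = 0.11) and Ndufv1 -0.20 ± 0.17 (SE, adjusted p = 0.51). Without DTR+ CL library 1, the one with the high sum, 4 genes were called lower and the median was -0.45. All 36 values were then below 0. Macrophage markers summed to 104 to 135 CPM in DTR- CL and 799 to 913 in DTR+ CL, and their part was not tested. The 95% intervals were wide, down to -1.05, and 5 of 36 lay above -0.42.

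PC61 against isotype in wild-type mice gave 0 of 36 called (0.651% of 11513 genes), 1 with an unadjusted p under 0.05 and 0 by DESeq2. The median was -0.06 and 35 of 36 intervals lay above -0.42. Ndufa11 was at 353, 351 and 375 CPM in isotype and 264, 275 and 317 in PC61 libraries, with -0.30 ± 0.11 (SE, adjusted p = 0.32) and separate groups. Ndufb7, a twin-cysteine subunit of the distal arm, had -0.19 ± 0.12 (SE, adjusted p = 0.62), Ndufa4 0.07 ± 0.10 (SE, adjusted p = 0.86) and Ndufv1 0.02 ± 0.09 (SE, adjusted p = 0.96), whose sign turned without PC61 library 3. Muscle markers summed to 3.89 to 1482 CPM in isotype and 197 to 6571 in PC61 libraries, and brown adipocyte markers to 13160 to 21373 and 9942 to 11771. Fibroblast markers summed to 373 to 540 and 706 to 907 (2 of 4 higher). Red cell markers summed to 537 to 740 and 825 to 1020 (0 of 5 called). The ranges of these last lists did not overlap. The part of all these markers was not tested.

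The antibody against interferon gamma in DTR+ mice gave 0 of 36 called (0.541% of 12017 genes), 4 with an unadjusted p under 0.05 and 0 by DESeq2. The median was 0.03 and the intervals ran from -0.34 to 0.54. Ndufs1 was at 567, 568 and 559 CPM in isotype and 664, 644 and 852 in antibody libraries, with 0.32 ± 0.11 (SE, adjusted p = 0.37). Its groups were separate, as were those of Ndufa10 (931, 1069.6 and 1069 against 1264, 1148 and 1332, 0.26 ± 0.10 SE, adjusted p = 0.47) and Ndufv1 (1301, 1335 and 1361 against 1633, 1440.3 and 1777, 0.25 ± 0.09 SE, adjusted p = 0.49). Ndufa4 had -0.07 ± 0.09 (SE, adjusted p = 0.9). Muscle markers summed to 8.36 to 1825 CPM in isotype and 634 to 3699 in antibody libraries. Those of T and NK cells summed to 17.2 to 28.8 and 9.4 to 15.6 CPM, without overlap (0 of 2 tested called). Of macrophage markers 1 of 7 was called lower, and of brown adipocyte markers 1 of 6. The part of these markers was not tested. Across the 36 genes the log2 fold changes of this comparison correlated with log2 transcript length (Pearson's r 0.65, Spearman's rho 0.55). Across 1093 genes expressed at least as highly as the lowest member Spearman's rho was 0.22, and both are descriptions. For the falls of DTR+ mice in BAT the relation over the 36 genes had the other sign (Pearson's r -0.45 and Spearman's rho -0.33 at D4, -0.42 and -0.40 at D3). Across genes expressed at least as highly as the lowest member, Spearman's rho was 0.045 at D4 (1376 genes) and -0.025 at D3 (1455 genes).

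Cold BAT was set against the PBS group, which had toxin and may be another experiment, so that temperature, toxin and experiment cannot be told apart. Here 4 of 36 genes rose (4.86% of 12329 genes were called higher) and 4 fell (3.8% lower), with a median of 0.06. In 19 of 36 the groups were separate and 19 had an unadjusted p under 0.05. The genes that rose were accessory subunits: Ndufb7, Ndufb2 and Ndufb5 of the distal membrane arm and Ndufa5 of the matrix arm. Those that fell were the core subunits Ndufs1 and Ndufv1 and the membrane-arm subunits Ndufa1 and Ndufa10.

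Ndufb7 was at 375, 359.7 and 412 CPM in PBS and 707, 661 and 599.6 in cold libraries, with 0.75 ± 0.13 (SE, adjusted p = 0.0055). Ndufa5 was at 633, 614 and 784 against 1141, 986 and 969, with 0.58 ± 0.14 (SE, adjusted p = 0.025). All cold libraries exceeded all PBS libraries for both genes. Ndufb2 was at 254, 272 and 328 against 464, 385 and 399, with 0.52 ± 0.14 (SE, adjusted p = 0.048), and Ndufb5 at 650.1, 750.0 and 779 against 1052, 1034 and 951, with 0.45 ± 0.12 (SE, adjusted p = 0.049). Ndufs1 was at 1137, 1250.1 and 1450.4 CPM in PBS and 944, 767 and 813 in cold, with -0.63 ± 0.14 (SE, adjusted p = 0.018). For Ndufs1 every cold library lay below every PBS library, and the same held for the other 3 that fell. Ndufa1 was at 1096, 1168 and 1352 against 883, 755 and 825, with -0.58 ± 0.13 (SE, adjusted p = 0.019). Ndufa10 was at 1536, 1730.1 and 1880.4 against 1336, 1115 and 1239, with -0.51 ± 0.13 (SE, adjusted p = 0.034), and Ndufv1 at 2101, 2239 and 2346 against 1835, 1488 and 1586, with -0.47 ± 0.13 (SE, adjusted p = 0.041).

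The number of calls rested on single libraries. Leaving out PBS library 2, cold library 2 or cold library 3 left 1, leaving out PBS library 1 left 4 and leaving out cold library 1 left 5. Against other control groups the counts were 10 lower and 13 higher (DTR- D4), 7 and 10 (DTR- D3) and 2 and 18 (WT isotype). The shares of all genes called against these controls are not given here, so these counts cannot be read as particular to the Nduf genes. Against WT isotype, Ndufa1 (adjusted p = 0.97) and Ndufa10 (adjusted p = 0.057) did not pass by edgeR. Cell-type markers also differed between PBS and cold libraries. Brown adipocyte markers summed to 15034 to 18791 CPM in PBS and 27662 to 29665 in cold (3 of 6 higher, 1 lower), and endothelial markers to 159 to 272 and 447 to 585 (3 of 4 higher). Macrophage markers summed to 211 to 577 in PBS and 158 to 205 in cold (1 of 5 tested lower). None of these ranges overlapped, and their part in the Nduf values was not tested.

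**Figure D4:**
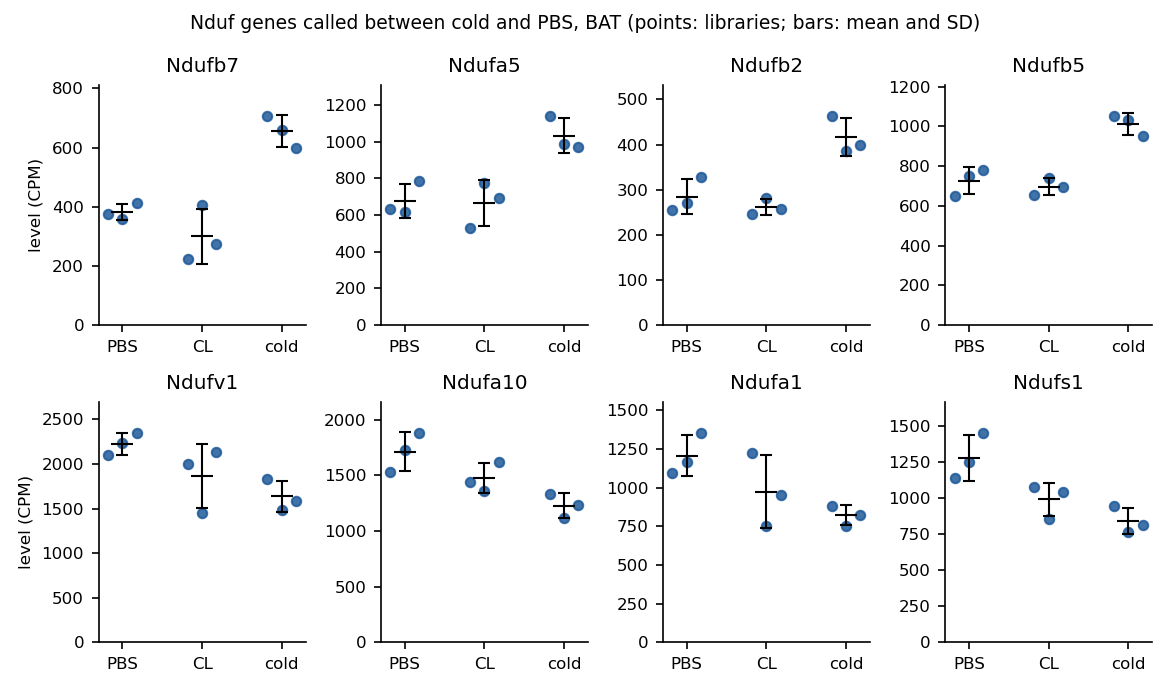
Level (CPM, vertical axes from 0) of the 8 Nduf genes called between cold and PBS, in BAT of PBS, CL and cold mice, with points for libraries and bars for the mean and SD. In the upper row all 3 cold libraries lie above the PBS libraries, and in the lower row all 3 lie below them.

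The makeup of the set shifted with the same libraries. Core subunits took 28.4 to 30.0% of the summed level in PBS libraries and 25.0 to 26.3% in cold libraries. Distal membrane-arm subunits took 24.8 to 25.3% and 27.4 to 28.9%. Neither pair of ranges overlapped, while the summed level itself did, at 31394, 33510.2 and 37297 CPM in PBS and 36476, 31889 and 31069.8 in cold. In D4 BAT core subunits were at 30.9 ± 0.17% in DTR- and 30.3 ± 1.05% in DTR+ (n = 4 each). A core share as low as in cold was not particular to it. It was 25.5% in DTR+ CL library 1, 24.1% in CL library 2 and 24.7 to 26.6% over the SAT group means. Distal shares averaged 24.4 to 25.0% in the SAT groups. These shares are descriptions with no test.

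**Figure D5:**
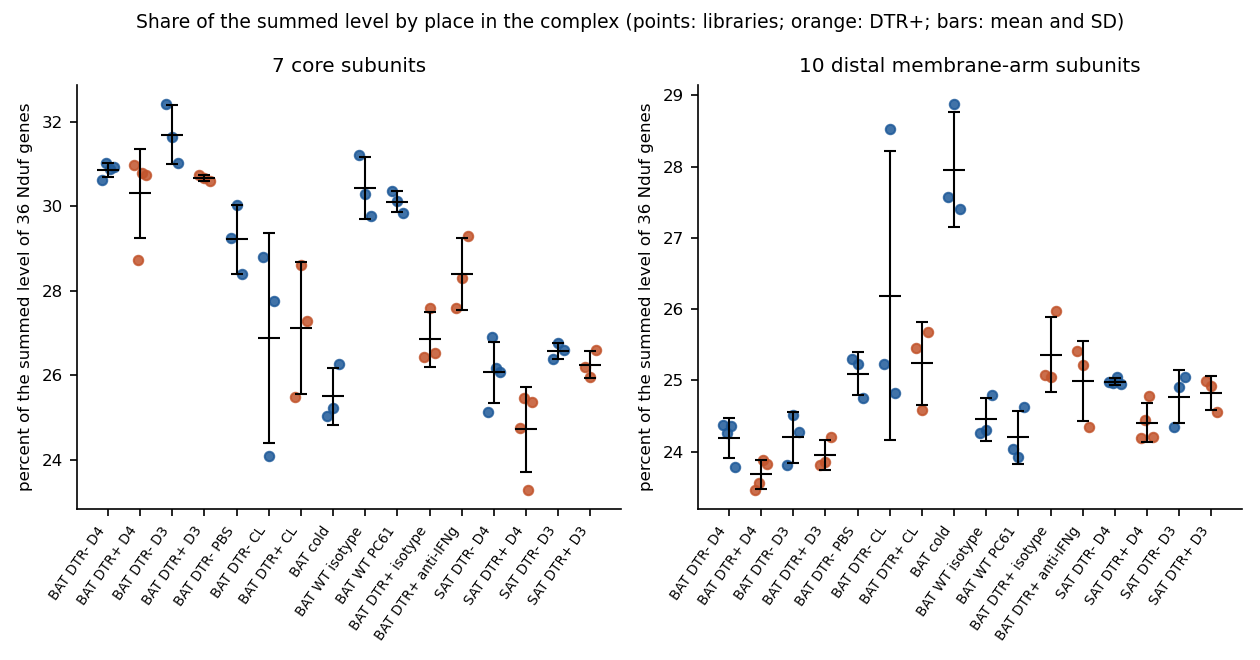
Share of the summed level of the 36 Nduf genes in the 16 whole-fat groups (percent, vertical axes that do not start at 0). The panels give the nuclear core subunits and the distal membrane-arm subunits. Points are libraries, orange marks DTR+ groups, and bars give the mean and SD. The cold libraries are at 25.0 to 26.3% for core and 27.4 to 28.9% for distal subunits, and CL library 2 lies near them at 24.1 and 28.5%. Core shares near those of cold are also seen in DTR+ CL library 1 (25.5%) and in the SAT groups (means of 24.7 to 26.6%).

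Cold was also set against CL, with the same cold and CL libraries as above, and here too the treatments differ in toxin. In this pair 14 of 36 genes were higher in cold and 0 lower (14.9% of 12206 genes were called higher), with a median of 0.21, and 20 had separate groups. The 14 were 1 core subunit (Ndufv2), 4 matrix-arm, 4 proximal and 5 distal membrane-arm subunits. Ndufb4, which has near copies elsewhere, was at 93.5, 109 and 118 CPM in CL and 272, 231 and 187 in cold libraries, with 1.02 ± 0.17 (SE, adjusted p = 0.00081). Ndufa8 was at 459.7, 433 and 519 against 863, 821 and 812, with 0.73 ± 0.13 (SE, adjusted p = 0.0013), and Ndufb7 at 222, 405 and 273 against 707, 661 and 599.6, with 1.04 ± 0.20 (SE, adjusted p = 0.0017). The groups were separate in all 3, with CL library 2 the highest of its group for Ndufb7. Ndufs4 was at 449.5, 487 and 454 against 844, 757 and 710.3, with 0.65 ± 0.14 (SE, adjusted p = 0.0031), and Ndufb2 at 246, 282 and 257 against 464, 385 and 399, with 0.58 ± 0.14 (SE, adjusted p = 0.0077). The other 9 that were higher (Ndufa3, Ndufa5, Ndufa6, Ndufa12, Ndufa13, Ndufb5, Ndufb10, Ndufs5 and Ndufv2) had log2 fold changes of 0.40 (Ndufb10) to 0.56 (Ndufa3). Leaving out CL library 1 left 5 calls, and leaving out cold library 1, 2 or 3 left 6, 7 or 9. Without CL library 2 the fit gave 13 higher and 4 lower. Brown adipocyte markers summed to 22951 to 28437 CPM in CL and 27662 to 29665 in cold, which overlapped. The ranges were separate for fibroblast markers, at 1379.5 to 1401 in CL and 494 to 1004 in cold (3 of 4 lower, 1 higher), for macrophage markers, at 104 to 135 and 158 to 205, and for endothelial markers, at 389 to 436 and 447 to 585. The part of these markers was not tested.

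Assembly factors and mitochondrial genes in cold BAT were read with the same fits. Against PBS, Timmdc1 (1.41 ± 0.20 SE, adjusted p = 0.0022) and Ndufaf4 (0.72 ± 0.18 SE, adjusted p = 0.03) of 16 assembly factors rose and 0 fell. Against CL 5 of 16 were higher, with 1.36 ± 0.23 (SE, adjusted p = 0.00071) for Timmdc1. The mitochondrially encoded mt-Nd3 fell against PBS (-3.47 ± 0.51 SE, adjusted p = 0.0047) and mt-Nd6 rose (1.46 ± 0.21 SE, adjusted p = 0.0026), while the other 5 did not pass. The regulator Ppargc1a rose against PBS (1.11 ± 0.23 SE, adjusted p = 0.013) and was lower than in CL (-3.76 ± 0.25 SE, adjusted p = 1.5e-06).

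Across the 38 BAT libraries the Nduf genes varied together. After the group means were removed, the median Pearson's r over 630 gene pairs was 0.68 and 99.8% of pairs were positive, which describes libraries that share depth and scaling. Genes outside the set were not correlated for comparison. Ndufa13, a membrane-arm subunit also known as GRIM-19, had the highest mean correlation with the others, 0.78. Over the 12 BAT group means, the ratio of the highest to the lowest ran from 1.40 for Ndufb11 to 3.29 for Ndufb7, which was lowest in DTR+ CL and highest in cold. Ndufb4 followed at 2.75 and Ndufb2 at 2.58.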

How the data were processed

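Whole BAT and SAT (52 libraries) and sorted Treg cells (8 libraries) of mice were sequenced from 2 ng of RNA with oligo(dT) priming, Smart-seq2 and Nextera XT, per the labels' protocols. The deposited values are raw counts per gene made by the authors, and the submitters' processing notes name STAR 2.7.3a, featureCounts and mm10. The annotation release and the strand setting were not given in the sources used here. From these counts, log2 fold changes, SEs and p-values were computed with edgeR 4.0.16 (filterByExpr, TMM factors, glmQLFit and glmQLFTest) and limma 3.58.1 in R 4.3.3, each fit on all genes of the groups concerned, with Benjamini-Hochberg adjustment over all genes tested and a call at 0.05. Levels are CPM with TMM factors over the 52 libraries. Library totals were 3007241 to 9673342 counts. In chi-square comparisons no 2 libraries of a group agreed within sampling noise (7.741 to 41.21 per degree of freedom over 60 pairs).

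The members and gene lists were chosen with earlier results of these data known. Named genes were, per comparison, the 5 called with the largest change, the 5 with the smallest p, called members against the majority, uncalled members where 5 or fewer remained and, where none was called, the 2 most expressed and the 2 with the smallest p, besides the core subunits. For 1 member, counted in the totals, single values are not reported here. A few further members shown with them were chosen after their values were seen. Alternatives were RLE factors, no filter, mitochondrially encoded genes left out, a replicate block, DESeq2 1.42.0, 1 fit of all whole-fat libraries, other controls for cold and each library left out. The fit was tested on simulated data. Near copies are transcripts matching at 95% identity over 100 bases.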

Additional observations from a re-analysis of the deposited data

Results flagged for a closer look

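Within groups of 4 libraries, 1 library stood apart from the rest by Dixon's criterion in 4 of 64 groups of values tested, where chance flags about 1 in 20 groups. Ndufs7 in BAT DTR- D4 had 1 low library at 1028.5 CPM, and Ndufs7 in SAT DTR+ D4 had a library apart at 229.5 CPM. Ndufv2 in BAT DTR+ D4 had a library apart at 1077.9 CPM. The summed proximal membrane-arm subunits in SAT DTR+ D4 reached 1813.2 CPM in library 3, which also had the highest muscle marker sum of its group, 2262 CPM.

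The D4 effect of depletion differed between BAT and SAT by the interaction test of edgeR with Benjamini-Hochberg adjustment in 4 genes. The differences were -0.657 for Ndufv3 (adjusted p = 0.016), -0.488 for Ndufa8 (adjusted p = 0.032), -0.566 for Ndufa6 (adjusted p = 0.036) and -0.482 for Ndufs6 (adjusted p = 0.046), on the log2 scale. All 4 genes fell in BAT and did not pass the test in SAT.

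The 8 sorted Treg libraries, used in no comparison above, also held Nduf counts. The 36 genes summed to a median of 2722.7 CPM there, computed on library totals.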

How the results depend on the processing

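The falls in D4 BAT and the depot differences kept their direction and count (within 1.5 times) under each alternative run. Leaving out single libraries gave 27 to 34 calls in D4 BAT, 36 in both depot comparisons, 0 in D4 SAT, D3 SAT, the D3 interaction, PC61 and anti-IFNg, 0 to 6 in the D4 interaction, 0 to 1 in D3 BAT, 0 to 3 for CL, 0 to 4 for DTR+ CL, 1 to 8 for cold against PBS and 5 to 17 for cold against CL. Without a filter on low counts the counts were 2 (D4 interaction, against 4), 6 (D3 BAT, against 2), 3 (CL, against 1), 1 (DTR+ CL, against 0) and 14 (cold against PBS, against 8). DESeq2 gave 12, 6 and 3 for the first 3 of these. Leaving out mitochondrially encoded genes gave 10 in the D4 interaction and 0 for CL, and RLE factors gave 2 for CL. In 1 fit of all whole-fat libraries the counts were 13 (CL), 9 (DTR+ CL) and 15 (cold against PBS). Other controls for cold gave 23 (DTR- D4), 17 (DTR- D3) and 20 (WT isotype). For the counts under these alternatives no share over all genes is given. Leaving out muscle-marked libraries gave 0 in D3 BAT. The cause of these shifts was not tested.

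No comparison had every same-numbered pair of its groups correlated over 0.1. Between depots the numbers gave a hint of pairing in some groups: BAT and SAT of DTR+ D3 had 3 of 3 pairs over 0.1 (0.116 to 0.228), each library best with its own number, and of DTR- D4 3 of 4 (0.041 to 0.221), while DTR- D3 had -0.190 to -0.079. The labels do not say whether depots share mice. With the replicate block, the counts were 0 in D3 BAT, 0 for CL, 1 for cold against PBS and 8 for cold against CL, and no other count moved by over 1.5 times. Both interaction counts and both depot counts were unchanged at 4, 0, 36 and 36, though Ndufs6 missed the D4 interaction threshold (adjusted p = 0.054 by edgeR). The block was not run for anti-IFNg, whose groups share 1 number.

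Sign changes concerned uncalled genes near 0. Leaving out single libraries gave -0.148 to 0.052 for Ndufa4 in D4 SAT, -0.030 to 0.176 for Ndufa4 in D3 SAT, and -0.020 to 0.041 for Ndufv1 under PC61, which was -0.016 in the fit of all whole-fat libraries. The SE of a member's log2 fold change had a median of 0.088 in D4 BAT and 0.122 in D4 SAT, which limits the smaller differences.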

Other observations

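The 36 Nduf genes had counts in every sorted Treg library. On library totals, their summed level was 2596 to 2647 CPM in 2 libraries of Treg cells from BAT, 2558 to 2723 in 3 from SAT and 2906 to 3170 in 3 from spleen. These are values with no test.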
